A study of Mus musculus with 30 samples.

Results

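The samples described here were 6 of the 30 arrays of the series: the 3 arrays of cells transfected with an siRNA against p53 (siP53) and the 3 arrays of cells transfected with a control siRNA (siControl) in the experiment labelled hnRNPKKD. They were taken by their titles. The series holds 3 experiments on mouse embryonic fibroblasts: a time course of p53 restoration (10 arrays), the hnRNPKKD experiment (12 arrays) and the lincP21KD experiment (8 arrays). In hnRNPKKD, siP53 and siControl stood beside an siRNA against lincRNA-p21, a long noncoding RNA induced by p53 (siLincp21, 3 arrays), and an siRNA against hnRNP-K, an RNA-binding protein that partners with it (siHnrnpk, 3 arrays). The comparison of siP53 with siControl asks which transcripts depended on p53 after DNA damage, and the other siRNAs ask which of those depended on lincRNA-p21 or hnRNP-K as well.

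All cells were fibroblasts of E13.5 embryos on a mixed C57BL/6 x 129SvJ background, grown in DMEM with 10% FBS and homozygous for p53 LSL, an allele of the endogenous p53 gene silenced by a removable stop cassette. The cells of all 6 arrays, controls included, received AdenoCre for 24 h, which removes the cassette and restores p53. They then received the siRNA for 24 h and 100 nM doxorubicin, a drug that breaks DNA, for 13 h. The comparison is therefore of cells with restored, damage-activated p53 against the same cells after p53 knockdown, with no undamaged or uninfected group in this experiment. The lincP21KD experiment used the same cells, virus, drug and hours, with siP53 on 3 arrays and a scrambled siRNA (siScramble) on 2. The time course compared AdenoCre with AdenoGFP, which leaves p53 silenced, at 5 times. The earliest was without doxorubicin and the latest was after 9 h of 500 nM doxorubicin. Its AdenoCre values are averages over all 5 times, the undamaged pair included. The labels do not say whether replicates were separate cultures, so the p-values measure a spread between arrays, which may be technical. For siP53 against siControl that spread was estimated over all 12 hnRNPKKD arrays, siLincp21 and siHnrnpk included. The p53 transcript itself is not analysed here, so the knockdown was read only from p53 target genes.

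p53 is a transcription factor that is held low by the ubiquitin ligase Mdm2 and is stabilised when DNA breaks. It binds a response element made of adjacent half-sites and switches on genes that stop the cell cycle, such as Cdkn1a (p21), genes that trigger cell death, and its own inhibitors. Genes of mitosis fall when p53 is active, a route known to run through p21 and repressor complexes at the CHR element (TTTGAA) of their promoters.

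All values below are log2 RMA signal, a background-corrected and normalised microarray intensity. Errors given with ± are standard errors from limma, with the spread estimated over all arrays in the fit. Each siRNA group had 3 arrays, except siScramble with 2. The 10 time course arrays formed 5 pairs, with no replicate of either virus at any time. A gene was called when its p, adjusted over all 12674 genes tested by the method of Benjamini and Hochberg, was below 0.05.

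Promoter sequences of RefSeq (GRCm38.p6) were at hand for 10200 of the 12674 tested genes. They were windows from 250 bases before to 50 bases after each annotated start. A gene with several starts could have several windows, and it held a match if any of them did. The first set of sequences shows p53 response elements in promoters of genes that fell, and it is printed so that the element p53 is known to bind can be seen beside the values of those genes. Capitals mark the 20-base match, searched as 2 adjacent 10-base half-sites with the C and G of each core kept and at most 2 other mismatches, on both strands. The matches to Cdkn1a (chr17:29090908-29090967, plus strand), Ccng1 (chr11:40755442-40755501, minus strand) and Gtse1 (chr15:85859940-85859969, plus strand) had 1 mismatch each. Those of Zfp365 (chr10:67912686-67912745, minus strand) and Cd80 (chr16:38458802-38458861, plus strand) had 2.
Cdkn1a: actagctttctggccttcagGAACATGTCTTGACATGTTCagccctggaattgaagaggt
Ccng1: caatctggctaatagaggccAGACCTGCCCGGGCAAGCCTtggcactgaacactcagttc
Gtse1: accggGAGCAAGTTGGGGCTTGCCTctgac
Zfp365: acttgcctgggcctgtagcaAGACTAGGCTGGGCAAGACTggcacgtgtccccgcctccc
Cd80: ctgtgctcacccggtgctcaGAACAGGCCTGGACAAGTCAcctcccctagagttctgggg

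Such a match stood in promoter windows of 47 of the 10200 genes (0.461%). Genes with a match were 22 of the 2010 that fell with siP53 (1.09%) and 8 of the 376 that fell at least 2-fold (2.13%). They were 5 of the 1961 that rose (0.255%). Among 42 listed p53 targets with a window, 5 held it (11.9%): Cdkn1a, Ccng1, Gtse1, Cd80 and Ckap2. Of the 47 genes with a match, 22 fell (46.8%) and 5 rose (10.6%), against 19.6% and 19.3% of the genes without one. A match is a description of letters in this window, and many known p53 sites lie outside it.

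The second set of sequences shows matches to TTTGAA, the letters of the CHR element, in mitotic genes that rose, because most mitotic genes rose. Bub3 (0.20), Cenpa (0.26) and Ube2c (0.14), which were not called, also held a match near the start and are not printed. Whether the matches act as CHR elements was not tested. Capitals mark TTTGAA, or its reverse complement TTCAAA, in the 30 bases around the match, which lies near the start site. The regions are chr9:70421533-70421562 for Ccnb2, chr10:69352910-69352939 for Cdk1, chr1:189688067-189688096 for Cenpf and chr15:99651634-99651663 for Racgap1 on the minus strand. They are chr19:37376351-37376380 for Kif11 and chrX:100626072-100626101 for Kif4 on the plus strand.
Ccnb2: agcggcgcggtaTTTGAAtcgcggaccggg
Cdk1: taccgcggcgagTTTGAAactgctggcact
Cenpf: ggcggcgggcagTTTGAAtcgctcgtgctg
Racgap1: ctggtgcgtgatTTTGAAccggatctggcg
Kif11: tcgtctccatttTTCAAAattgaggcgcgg
Kif4: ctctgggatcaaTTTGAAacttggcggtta

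TTTGAA on either strand stood in windows of 28 of 38 mitotic genes (73.7%), 4 of 36 DNA replication genes (11.1%) and 1447 of all 10200 genes (14.2%). CCAAT, the NF-Y box that often stands near it, was in windows of 29 of 38 mitotic genes (76.3%) and of 42.8% of all genes. Within the mitotic list, 24 of the 28 genes with TTTGAA rose, and so did 8 of the 10 without it. Over all promoters, 303 of the 1447 genes with TTTGAA rose (20.9%), against 18.9% of those without it.

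With siP53, 2438 genes fell (19.2% of those tested) and 2449 rose (19.3%), together 38.6%, so the counts of members below are to be read against these shares. The falls were larger than the rises: 23 genes fell at least 8-fold and none rose as much, while 485 fell and 447 rose at least 2-fold. The median difference over all tested genes was -0.01. The 3 siP53 arrays did not overlap the 3 siControl arrays in 5317 genes (42% of those tested), 2633 of them lower with siP53 (20.8%) and 2684 higher (21.2%). Array medians lay between 4.85 and 4.91 over the 6 arrays.

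Replicate 2 of siP53 stood apart from its group. Over all genes it correlated at 0.987 with replicate 1 and at 0.976 with replicate 3, against 0.995 between replicates 1 and 3 and 0.993 to 0.996 among the controls. Values without it are given for some of the results that it moved. Others moved too, such as Mdm2 (-3.22, and -3.60 without it) and Dcxr (-3.61, and -4.20 without it). Without it, 6552 genes were called (51.7%), 3292 lower (26%) and 3260 higher (25.7%), and 4684 of the 4887 genes called with all arrays were among them in the same direction.

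The known targets of p53 fell as a group. Of 51 measured genes on 3 lists of p53 targets, 40 fell, 2 rose and 9 were not called. Of the list for cell-cycle arrest and feedback, 13 of 16 fell and 1 rose, with a median of -2.02. Of the cell death list, 11 of 12 fell, with a median of -1.70. Of the list for metabolism, repair and other functions, 16 of 23 measured genes fell and 1 rose, with a median of -1.68.

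Cdkn1a, the CDK inhibitor p21 that holds cells in arrest, read 10.52, 11.41 and 10.61 on siP53 replicates 1 to 3 and 13.53, 13.43 and 13.51 on the controls. All siP53 arrays lay below all controls, and replicate 2 lay nearest to them. The difference was -2.64 ± 0.18, 6.23-fold lower (adjusted p = 4.38e-07), and without replicate 2 it was -2.92. Its other probe set gave -3.69.

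Mdm2, the ligase that targets p53 for degradation, read 8.55, 9.74 and 8.65 with siP53 and 12.25, 12.08 and 12.27 in the controls. The groups were far apart, and replicate 2 again lay highest of the siP53 arrays. The difference was -3.22 ± 0.23, 9.32-fold lower (adjusted p = 7.17e-07).

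Psrc1, a microtubule-associated protein, read 7.24, 8.28 and 7.41 against 11.28, 10.89 and 11.10, and it fell 10.9-fold (-3.44 ± 0.21, adjusted p = 1.74e-07). Btg2, an antiproliferative regulator of mRNA decay, read 7.40, 9.30 and 6.94 against 10.59, 10.62 and 10.96. Its siP53 arrays spread over more than 2 log2 units, and its difference of -2.85 ± 0.44 became -3.56 without replicate 2. Ccng1, cyclin G1, a feedback regulator of p53, fell by 1.01 ± 0.10 on the most abundant probe set (12.89, 12.81 and 12.76 against 13.97, 13.61 and 13.89). That probe set understated the change of others of the gene, which gave -2.26 and -2.18.

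Ddit4l, an inhibitor of the growth kinase mTORC1, fell by 2.7 ± 0.13, and Rprm, which arrests cells in G2, fell by 2.41 ± 0.17. Gtse1, a microtubule protein that restrains p53, fell by 2.13 ± 0.20, Trp53inp1, which activates p53 through a kinase, by 2.03 ± 0.13 (its other probe set gave -0.63), and Sesn2, a stress sensor that inhibits mTORC1, by 2.0 ± 0.12. Zmat3, a zinc finger RNA-binding protein, fell by 1.38 ± 0.12 and Ppm1d, the phosphatase Wip1 that switches the damage signal off, by 1.01 ± 0.10. Plk2, a polo-like kinase, fell by 0.36 ± 0.09, and its other probe set gave 0.06. Sesn1, the relative of Sesn2, went the other way: it read 8.48, 8.28 and 8.63 against 7.92, 8.09 and 7.89 and rose by 0.49 ± 0.10 (adjusted p = 0.00212). Plk3 (-0.04 ± 0.09) and Triap1 (-0.22 ± 0.23) were not called.

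**Figure D1:**
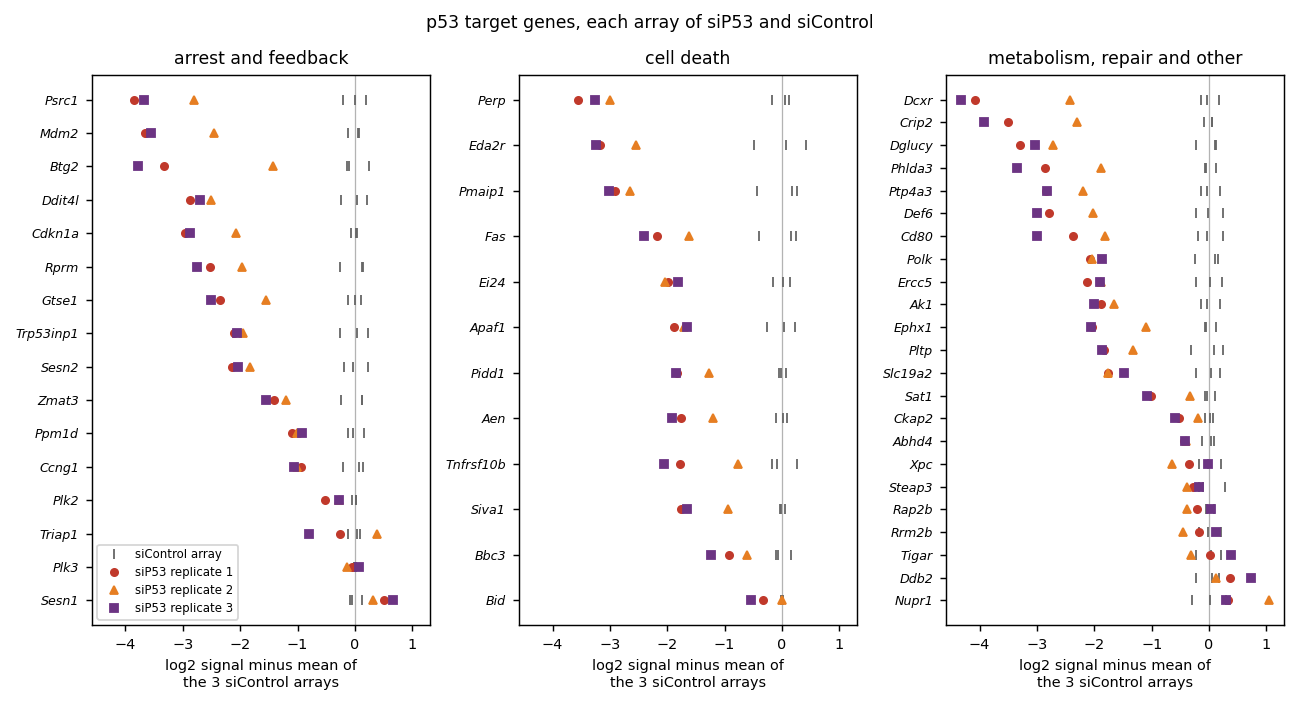
Difference of each siP53 array from the mean of the 3 siControl arrays (log2, horizontal) for measured p53 targets, with the 3 siP53 replicates as separate points and the 3 siControl arrays as ticks. Most targets lie to the left of 0, and replicate 2 is the point nearest 0 for 34 of the 40 targets that fell.

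Among the death genes, Perp, a desmosome protein that promotes apoptosis, read 7.62, 8.17 and 7.92 with siP53 and 11.29, 11.01 and 11.23 in the controls. It fell 9.67-fold (-3.27 ± 0.13, adjusted p = 7.32e-09), and all 3 siP53 arrays were close together. Pmaip1 (Noxa), a BH3-only killer protein, read 6.16, 6.43 and 6.06 against 9.34, 8.65 and 9.25 and fell by 2.86 ± 0.16. Eda2r, a death receptor of the TNF receptor family, read 4.29, 4.92 and 4.22 against 7.89, 6.98 and 7.54 and fell by 2.99 ± 0.23. Its level with siP53 on replicates 1 and 3 was under 4.54, the limit below which probe sets were left out by their mean over all arrays, so the size of this fall has a floor.

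The death receptors Fas (-2.07 ± 0.21) and Tnfrsf10b (-1.54 ± 0.25) fell as well. So did Ei24 (-1.95 ± 0.10), an endoplasmic reticulum protein, Apaf1 (-1.75 ± 0.12), the core of the apoptosome, Pidd1 (-1.65 ± 0.15), which activates caspase-2, Aen (-1.63 ± 0.15), an apoptotic nuclease, and Siva1 (-1.45 ± 0.17). Bbc3 (Puma), a BH3-only protein, fell by 0.92 ± 0.14. Bid read 9.88, 10.21 and 9.68 against 10.21, 10.24 and 10.20 and was not called (-0.29 ± 0.12, adjusted p = 0.0635). Without replicate 2 its difference was -0.44, and it was then called.

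In the third list, Dcxr, a carbonyl reductase of the xylulose pathway, read 7.59, 9.25 and 7.35 with siP53 and 11.64, 11.54 and 11.84 in the controls. It fell 12.2-fold (-3.61 ± 0.36), and replicate 2 stood far above the other siP53 arrays. Crip2, a LIM protein, read 8.79, 9.99 and 8.38 against 12.34, 12.21 and 12.35 and fell by 3.24 ± 0.29. Dglucy, a mitochondrial D-glutamate enzyme, fell by 3.02 ± 0.14.

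Phlda3, which blocks the kinase Akt, fell by 2.69 ± 0.26, and Ptp4a3, a phosphatase, by 2.63 ± 0.15. Def6 fell by 2.60 ± 0.20, and Cd80, a T cell costimulator, by 2.39 ± 0.29 (other probe sets -1.73 and -1.58). The repair genes Polk, a lesion-bypass polymerase (-2.0 ± 0.12), and Ercc5, an excision nuclease (-1.97 ± 0.13), fell, while the repair genes Xpc (-0.34 ± 0.15), Rrm2b (-0.17 ± 0.15) and Ddb2 (0.41 ± 0.18) were not called. Ak1 (-1.85 ± 0.11), Ephx1 (-1.73 ± 0.20), Pltp (-1.68 ± 0.16), Slc19a2 (-1.67 ± 0.12), Sat1 (-0.82 ± 0.17), Ckap2 (-0.44 ± 0.11) and Abhd4 (-0.41 ± 0.08) fell. Steap3 (-0.28 ± 0.12), Rap2b (-0.19 ± 0.11) and Tigar (0.03 ± 0.18) were not called. The other probe sets of Steap3 gave -0.93 and -0.46, and those of Rap2b ran from -0.49 to -0.017. Nupr1, a stress-induced chromatin protein, rose by 0.55 ± 0.20 (adjusted p = 0.0472) with overlapping arrays.

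On the target lists, replicate 2 fell least. On the arrest list, the medians of the differences from the control mean were -2.12, -1.48 and -2.05 for replicates 1 to 3. On the cell death list they were -1.86, -1.45 and -1.88, and on the third list -1.83, -1.33 and -1.87. Replicate 2 had the smallest fall in 34 of the 40 targets that fell, replicate 3 in 5 and replicate 1 in 1. Over all 2438 genes that fell, replicate 2 was the smallest in 1392, replicate 3 in 814 and replicate 1 in 232. Without replicate 2 the medians of the 3 target lists were -2.09, -1.87 and -1.85, and 14, 12 and 16 genes fell.

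Genes chosen on arrays of the other experiments allowed a look at each siP53 array that the choice did not fix. For the 727 genes that fell with siP53 in lincP21KD, the medians of replicates 1 to 3 here were -0.84, -0.82 and -0.76. For the 888 genes that rose there, they were 0.63, 0.64 and 0.68, so replicate 2 was not the weakest in either set. For the 1639 genes higher with AdenoCre in the time course, the medians were -0.41, -0.30 and -0.38, and for the 792 lower ones 0.48, 0.29 and 0.52. In both of these sets replicate 2 lay nearest 0.

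Replicate 2 of siControl leaned towards siP53. It was the lowest control in 35 of the 40 targets that fell, against 4 for replicate 1 and 1 for replicate 3. Of the 40 mitotic genes that rose, it was the highest control in 36, and of all 2449 genes that rose, in 1265. The part of either array in the other's readout was not tested. Without siControl replicate 2, 4299 genes were called, 2155 of them lower.

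Genes with a predicted or clone name were left out of the following 12 largest falls. Arg2, mitochondrial arginase, read 4.60, 5.14 and 4.24 with siP53 and 8.82, 8.72 and 8.88 in the controls. It fell 17.7-fold (-4.15 ± 0.18, adjusted p = 1.76e-08), to a level near the filter limit of 4.54. Acaa1b, a peroxisomal thiolase of fatty acid oxidation, read 4.48, 5.78 and 4.65 against 9.20, 8.57 and 8.98 and fell 15.4-fold, with replicate 1 below that limit.

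Rgs5, which shortens G protein signalling, read 5.64, 6.00 and 5.56 against 9.43, 9.18 and 9.40 and fell 12.1-fold. Its arrays were tight in both groups, and replicate 2 was only slightly higher. Cox6b2, a subunit of cytochrome c oxidase, read 5.41, 7.03 and 4.88 against 9.18, 9.01 and 9.51, and here replicate 2 stood well above the other siP53 arrays (-3.46 ± 0.40, and -4.09 without it). Celf5, an RNA-binding splicing regulator, fell by 3.45 ± 0.20, Zfp365, a zinc finger protein of genome stability, by 3.37 ± 0.24, and Tbc1d8, a Rab GTPase activator, by 3.37 ± 0.22. Other probe sets of Zfp365 and Tbc1d8 gave -1.70 and -1.98. Hoatz (-3.37 ± 0.13), Mab21l3 (-3.36 ± 0.21) and Tcim (-3.31 ± 0.13), a regulator of Wnt signalling, completed the 12 largest falls with Psrc1 and Dcxr, and all siP53 arrays of Hoatz and Mab21l3 were below the limit of 4.54. Other probe sets also gave smaller falls for Btg2 (-1.81), Siva1 (-0.415 at the least) and Rgs5 (-2.365 at the least).

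The 12 largest rises were each smaller than the smallest of the 12 largest falls. Stk26, a kinase of the STE20 family, read 8.40, 7.98 and 8.60 with siP53 and 5.25, 6.12 and 5.59 in the controls. It rose 6.4-fold (2.68 ± 0.24, adjusted p = 4.34e-06), and replicate 2 of each group was the array nearest the other group. Its other probe set gave 1.42. Adam12, a membrane metalloprotease, read 9.16, 8.78 and 9.28 against 6.26, 7.17 and 5.96 and rose 6.12-fold. Aspn, asporin, a small matrix proteoglycan, read 9.97, 9.89 and 9.84 against 6.69, 8.01 and 7.17 and also rose 6.12-fold.

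In Aspn the siP53 arrays were even and the controls were spread, with replicate 2 highest. Cxcl5, a neutrophil chemokine, rose by 2.46 ± 0.25, Ednrb, an endothelin receptor, by 2.36 ± 0.21 (0.92 and 1.26 on its other probe sets) and Elovl5, which elongates fatty acids, by 2.35 ± 0.22. Ccn5 (2.27 ± 0.23), a matricellular protein, Adamts5 (2.22 ± 0.16), which cleaves aggrecan, and Calml4 (2.22 ± 0.20) rose too. Mfap5, a microfibril protein, read 8.25, 8.72 and 7.71 against 5.48, 7.02 and 5.61 and rose by 2.19 ± 0.34. Klhl30 (2.11 ± 0.21) and the water channel Aqp5 (2.11 ± 0.28) completed the 12 largest rises.

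**Figure D2:**
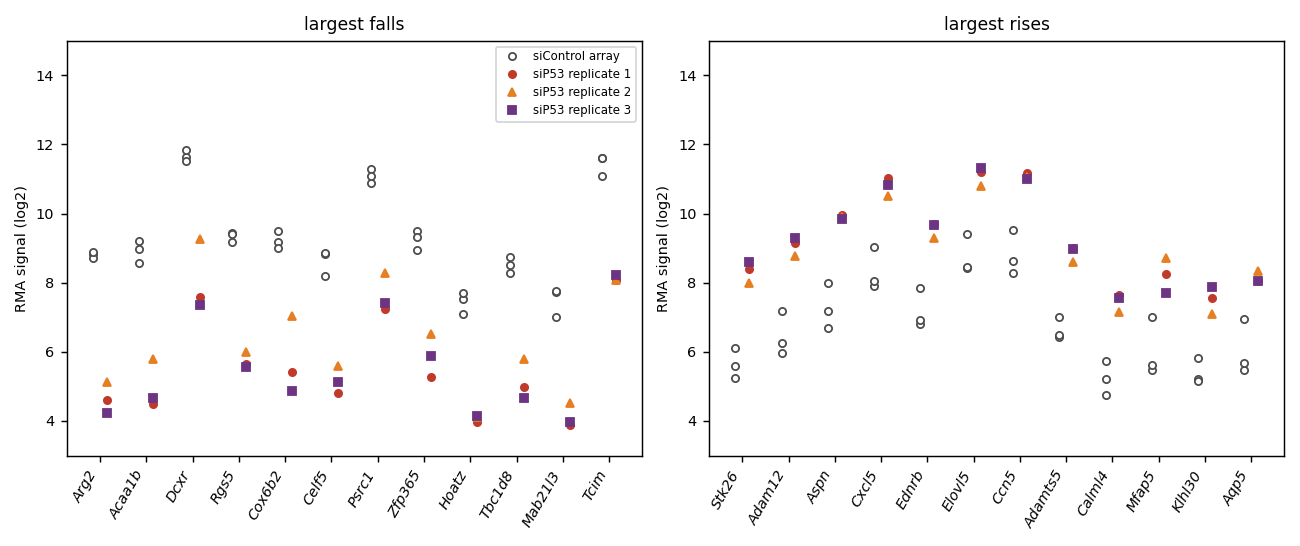
Log2 signal of each of the 3 siP53 and 3 siControl arrays for the 12 largest falls and the 12 largest rises among genes whose groups did not overlap. For the rising genes 1 control array lies above the others, for example at 7.02 against 5.48 and 5.61 for Mfap5.

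Genes of mitosis rose. Of 46 mitotic genes, 40 rose and none fell, with a median of 0.93 and array medians of 0.95, 0.88 and 1.08 for siP53 replicates 1 to 3. Nek2, a kinase that splits centrosomes, read 9.23, 9.06 and 9.21 with siP53 and 7.17, 7.85 and 7.34 in the controls and rose 3.28-fold (1.71 ± 0.14, adjusted p = 2.36e-06), with other probe sets from 1.07 to 1.74. Aurkb, the Aurora B kinase of the chromosomal passenger complex, read 8.92, 8.78 and 8.70 against 7.04, 7.45 and 7.08 and rose 3.05-fold. The spindle motors Kif11 (1.53 ± 0.14, with 9.55, 9.11 and 9.49 against 7.81, 7.96 and 7.81) and Kif4 (1.23 ± 0.12) rose as well. Their TTTGAA matches are printed above. Replicate 2 had the smallest median rise of the siP53 arrays on this list. It read lowest of them for Nek2, Kif11 and Kif4 (8.88, 8.81 and 9.14 for Kif4), but not for Aurkb. How often it was the weakest array over the list was not counted.

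DNA replication genes moved less. Of 44 measured, 23 rose and none fell, with a median of 0.43, and without siP53 replicate 2 there were 27 that rose and 2 that fell. Pola1, the catalytic subunit of the polymerase that starts new strands, read 7.72, 7.67 and 7.95 against 6.48, 6.10 and 6.23 and rose by 1.51 ± 0.12. Rfc1, of the clamp loader, rose by 1.51 ± 0.16, Orc1, of the origin recognition complex, by 1.17 ± 0.12 (0.30 on its other probe set) and Pole, the leading-strand polymerase, by 1.16 ± 0.12.

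Of 25 cyclins, CDK inhibitors and E2F and Rb genes, 10 rose and 6 fell. E2f7, a repressor of the E2F family, read 9.43, 8.93 and 9.55 against 7.0, 7.66 and 7.07 and rose by 2.06 ± 0.18, and E2f6 rose by 1.26 ± 0.12 (0.56 on its other probe set). E2f5 fell by 1.28 ± 0.13 (other probe sets from -1.17 to -0.01), and Cdkn2b, the CDK inhibitor p15, fell by 0.94 ± 0.10. Of 22 DNA repair and checkpoint genes, 9 rose, among them Exo1 (1.07 ± 0.14), Mdc1 (0.98 ± 0.12) and Fancd2 (0.84 ± 0.11), and 3 fell, among them the mismatch repair gene Msh6 (-1.12 ± 0.10).

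Immediate early genes and the feedback phosphatases of MAP kinase signalling fell. Of 23, 15 fell and 4 rose, with a median of -0.59. Egr3, a growth factor induced transcription factor, read 6.31, 5.98 and 6.71 with siP53 and 9.65, 8.36 and 9.30 in the controls (-2.77 ± 0.27), but its other probe set gave -0.02. Dusp6, which inactivates ERK in the cytoplasm, read 8.64, 8.52 and 8.90 against 11.15, 10.71 and 10.96 and fell 4.76-fold (-2.25 ± 0.12, adjusted p = 8.51e-08). Dusp4 (-2.18 ± 0.17) and Dusp5 (-1.49 ± 0.09), phosphatases of nuclear MAP kinases, fell too. Replicate 2 was the lowest siP53 array for Egr3, Dusp5 and Dusp6 and the highest for Dusp4.

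Among ligands of the EGF receptor, Tgfa read 5.32, 5.38 and 5.60 against 8.59, 7.89 and 8.24 and fell 6.99-fold (-2.81 ± 0.15), and Hbegf fell by 1.13 ± 0.09. Of 22 growth factors and receptors, 9 rose and 8 fell. Pdgfrb, the PDGF receptor of fibroblasts, read 11.68, 11.15 and 11.74 against 9.81, 9.95 and 9.55 and rose by 1.75 ± 0.16, and Kitl, the ligand of Kit, rose by 1.12 ± 0.12.

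Genes of the extracellular matrix rose more often than they fell. Of 25, 16 rose and 3 fell, with a median of 0.39. Lox, which crosslinks collagen, read 12.86, 12.91 and 12.80 against 10.84, 11.72 and 11.00 and rose by 1.67 ± 0.18 (other probe sets from 0.84). Col11a1, a fibril collagen, rose by 1.34 ± 0.13 (2.55 on its other probe set) and Timp3, an inhibitor of metalloproteases, by 1.26 ± 0.10, while Mmp3, stromelysin, fell by 1.65 ± 0.11. Of 19 contractile and TGF-beta genes, 10 rose and 1 fell (11 and 3 without siP53 replicate 2), with a median of 0.43. Those that rose included Actg2, a smooth muscle actin (1.08 ± 0.13), and Vcl, vinculin (0.82 ± 0.10).

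Sterol synthesis genes rose. Of 16, 13 rose and none fell (11 and none without siP53 replicate 2), with a median of 0.63. Idi1, an enzyme of the isoprenoid steps, read 11.42, 11.55 and 11.58 against 9.83, 10.57 and 9.91 and rose by 1.42 ± 0.17, and Insig1, which retains the regulator of the pathway, rose by 1.41 ± 0.20. Stard4, a sterol carrier, rose by 0.96 ± 0.14 and Cyp51, a demethylase of the pathway, by 0.83 ± 0.11 (other probe sets 0.57 and 1.97). Of 24 genes of the unfolded protein and amino acid stress responses, 12 rose and 2 fell (median 0.38), with Chac1, which degrades glutathione, at 1.29 ± 0.16 and Slc7a5, an amino acid carrier, at 1.18 ± 0.11. Without siP53 replicate 2, 13 of this list rose and 7 fell.

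Interferon-stimulated genes were uneven among the siP53 arrays. Of 27, 8 rose and 4 fell (6 and 6 without siP53 replicate 2), with a median of 0.51, and the array medians were 0.17, 0.82 and 0.52 for replicates 1 to 3. Ifit2 (1.07 ± 0.15) and Cxcl10 (1.07 ± 0.18) rose, while the antigen transporter Tap1 read 5.81, 6.57 and 6.16 against 8.59, 8.25 and 8.41 and fell by 2.23 ± 0.16. Ifi35 fell by 0.59 ± 0.12. Of 16 inflammatory and NF-kB genes, 7 rose, among them Cxcl5 and Cxcl1 (1.60 ± 0.13, other probe sets from 0.74), and 3 fell, among them the adhesion receptor Icam1 (-2.57 ± 0.21, below the limit of 4.54 on siP53 replicates 1 and 3) and the cytokine Lif (-1.96 ± 0.16, -0.06 on its other probe set).

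Of 13 antioxidant genes of NRF2, 5 fell, none rose and 8 were not called, with a median of -0.26. The share called (38.5%) was close to that of all genes (38.6%). Gsta4, a glutathione transferase, read 10.21, 10.99 and 10.05 against 12.20, 12.45 and 12.36 and fell by 1.92 ± 0.21. Gclc, the first enzyme of glutathione synthesis, read 9.41, 9.59 and 9.50 against 10.86, 10.70 and 10.72 and fell by 1.26 ± 0.09. Of 22 hypoxia and glycolysis genes, 4 rose and 4 fell (6 and 8 without siP53 replicate 2), with the vasodilator peptide Adm up by 1.77 ± 0.17 and Ddit4, an mTORC1 inhibitor, at -1.21 ± 0.12.

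The shares called on the remaining lists ran from 15.4% for the proteasome to 62.5% for the p53 family, beside 38.6% of all genes. Of 21 genes of the BCL2 family and apoptosis machinery, 3 rose and 6 fell (5 and 5 without siP53 replicate 2), and of 24 chromatin regulators, 8 rose and 4 fell. Of 16 genes of the p53 family and its regulators, 8 fell and 2 rose. The 8 included Mdm2, Ppm1d, Ppp1r13l, which encodes the p53 inhibitor iASPP (-1.12 ± 0.10, other probe sets up to -0.23), and Rchy1, a ubiquitin ligase for p53 (-1.06 ± 0.12). Of 24 hnRNP and splicing genes, 2 rose and 2 fell (6 and 4 without siP53 replicate 2), and of 14 genes near Cdkn1a, 2 rose and 2 fell. Ribosomal protein genes (3 of 15 fell) and proteasome genes (4 of 26 fell) had no rise. Both counts depended on replicate 2, since 9 and 12 fell without it, and its median on the ribosomal list was -0.01 against -0.22 and -0.35 for replicates 1 and 3. Hnrnpk, the target of another siRNA of the experiment, read 12.71, 12.11 and 12.62 with siP53 and 12.68, 12.03 and 12.47 in the controls and was not called (0.09 ± 0.35). That error includes the spread of the siHnrnpk arrays (8.38, 8.34 and 9.94).

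**Figure D3:**
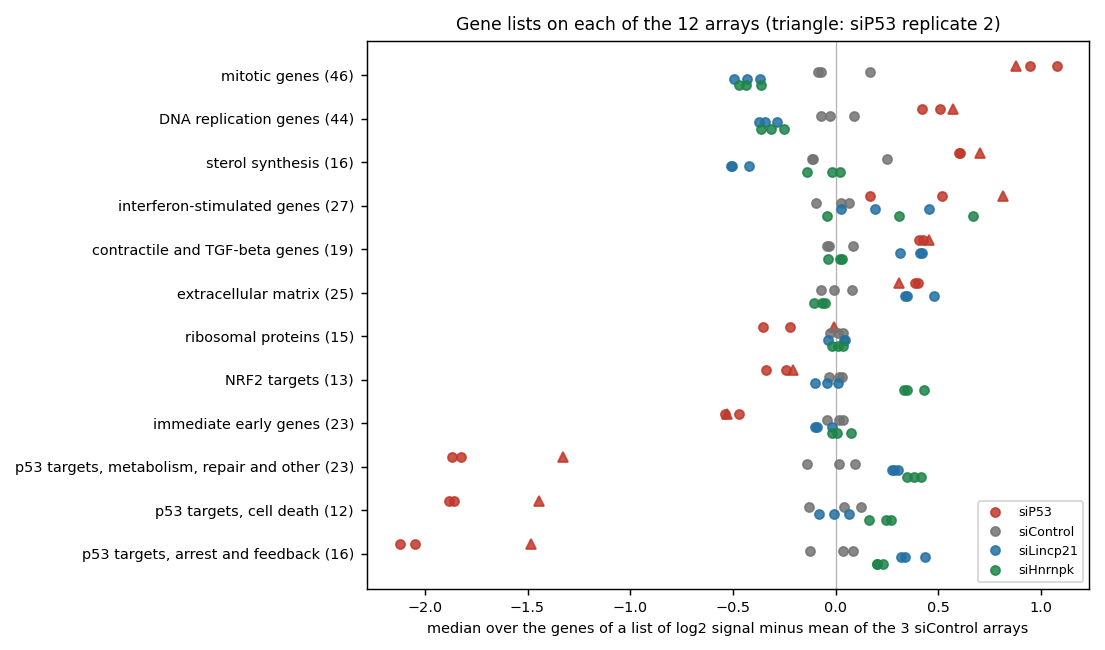
Median over the members of each gene list (vertical) of the log2 difference from the mean of the 3 siControl arrays (horizontal), with 1 point for each of the 12 arrays coloured by siRNA and a triangle for siP53 replicate 2. With siP53 the 3 p53 target lists lie between -2.12 and -1.33, and mitotic genes between 0.88 and 1.08.

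The fibroblast label held in both groups. Of 9 measured fibroblast markers, 6 rose and none fell, and their summed level lay between 16.37 and 16.40 with siP53 and between 16.09 and 16.17 in the controls. Pdgfrb, Col3a1 (0.93 ± 0.12, 1.57 on its other probe set), Prrx1 (0.74 ± 0.11) and Thy1 (0.71 ± 0.09) were among the ones that rose. Fewer cells of a type and less RNA per cell cannot be told apart in such bulk samples.

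Of 40 measured markers of other cell types, 25 passed the filter. Of 8 macrophage markers, 5 passed the filter and 2 of these fell, and the summed level of all 8 was between 7.95 and 8.54 with siP53 and between 9.57 and 9.79 in the controls. Cd68, a lysosomal protein, read 4.98, 6.54 and 5.07 against 7.92, 8.04 and 8.53 and fell by 2.63 ± 0.33. Cd14, a receptor for bacterial lipid, read 6.02, 6.97 and 6.44 against 8.43, 8.53 and 8.52 and fell by 2.02 ± 0.19. The defining macrophage genes Adgre1 (4.21 to 4.50 with siP53, 4.09 to 4.48 in the controls), Ptprc (3.71 to 4.05 and 3.76 to 4.10) and Fcgr3 were under the limit of 4.54 in both groups. Of 6 endothelial markers 1 passed the filter, and of 6 epithelial markers 2 did. Of 3 adipocyte markers that passed, 2 fell, with a summed level of 8.70 to 9.71 against 10.02 to 10.09. Among skeletal muscle markers Acta1 rose (10.14 to 10.84 against 9.39 to 9.87), while Myod1 and Myog were near the limit in both groups. Of 5 neural markers 2 rose, Map2 (0.94 ± 0.16, other probe sets 0.278 to 0.383) and Tubb3 (0.69 ± 0.15), with a summed level of 9.25 to 9.43 against 8.89 to 8.98. Of 4 chondrocyte markers that passed, Comp rose (0.80 ± 0.13) and Sox9 fell (-1.03 ± 0.14), with a summed level of 8.08 to 8.18 against 8.33 to 8.58. The part of such markers in the results was not tested.

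The second siP53 experiment, lincP21KD, gave an independent set of arrays. There 727 genes fell (5.74%) and 888 rose (7.01%) with siP53 against siScramble, together 12.7% of the tested genes. Of the 727 that fell, 579 also fell in hnRNPKKD, which is 79.6% of the lincP21KD list and 23.7% of the hnRNPKKD list. Of the 888 that rose, 602 rose in hnRNPKKD, 67.8% of the one list and 24.6% of the other. In the opposite direction, 18 genes fell in hnRNPKKD and rose in lincP21KD, and 12 rose in hnRNPKKD and fell in lincP21KD.

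The p53 targets fell in both experiments. In lincP21KD 13, 10 and 15 genes of the arrest list, the death list and the third list fell. Cdkn1a read 10.53, 10.31 and 10.68 there with siP53 and 12.48 and 12.68 with siScramble (-2.07), and Mdm2 read 9.66, 9.51 and 9.99 against 12.003 and 12.16 (-2.36). Levels are not compared between experiments, which appear to have been normalised apart.

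The size of the siP53 effect differed between the experiments in 1837 genes (14.5%), 932 of them with a lower value in hnRNPKKD (7.35%) and 905 with a higher one (7.14%). The count moved with single arrays: it was 4350 without siP53 replicate 2 of hnRNPKKD, 1074 without siScramble replicate 1 and 935 without siScramble replicate 2, where the lone control array was assumed to vary like the other groups. Of the 932, 865 also fell in hnRNPKKD, and 612 of these were not called in lincP21KD. Of the 905, 868 also rose in hnRNPKKD, and 658 of these were not called in lincP21KD. Among the mitotic genes, 25 of 46 rose more in hnRNPKKD, and 17 rose in lincP21KD by its own test. Of the target lists, 5, 7 and 9 genes fell more in hnRNPKKD and 1, Ccng1, fell less (0.57, or -0.043 with the mean of its probe sets).

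The largest such differences were Arg2 (-3.41 ± 0.29) and Krt18 (-3.31 ± 0.17). Arg2 read 4.31, 4.30 and 4.52 with siP53 and 5.52 and 4.71 with siScramble in lincP21KD, so its control level there was already near the limit of 4.54. Krt18, a keratin of simple epithelia, read 4.68, 4.84 and 4.70 with siP53 in hnRNPKKD against 7.88, 7.77 and 8.05 in its controls, and 6.46, 6.26 and 6.18 against 6.20 and 6.11 in lincP21KD. In hnRNPKKD the groups were far apart, and in lincP21KD they overlapped, with siP53 at 0.15 and not called.

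Tgfa was the next (-2.67), and its lincP21KD control arrays read 5.58 and 5.31, near its siP53 level of 5.25 to 5.35. Hs3st1, a heparan sulfate sulfotransferase (-2.59), Rgs5 (-2.54), Dapk1, a death-associated kinase (-2.46, with -3.23 in hnRNPKKD and -1.34 on its other probe set there), and Ripk4, a kinase (-2.33, with -2.31 in hnRNPKKD and -1.12 on its other probe set there), had larger falls in hnRNPKKD. Cemip, a hyaluronan-degrading protein, rose by 2.07 ± 0.23 in hnRNPKKD and was at -0.35 and not called in lincP21KD (difference 2.42), but its other probe set gave 0.08 in hnRNPKKD. In lincP21KD, 3 of 13 NRF2 targets rose and none fell, and 5 were lower in the difference between the experiments. For the interferon list, 19 of 27 rose and 1 fell in lincP21KD, and in the difference 1 was higher and 3 were lower.

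**Figure D4:**
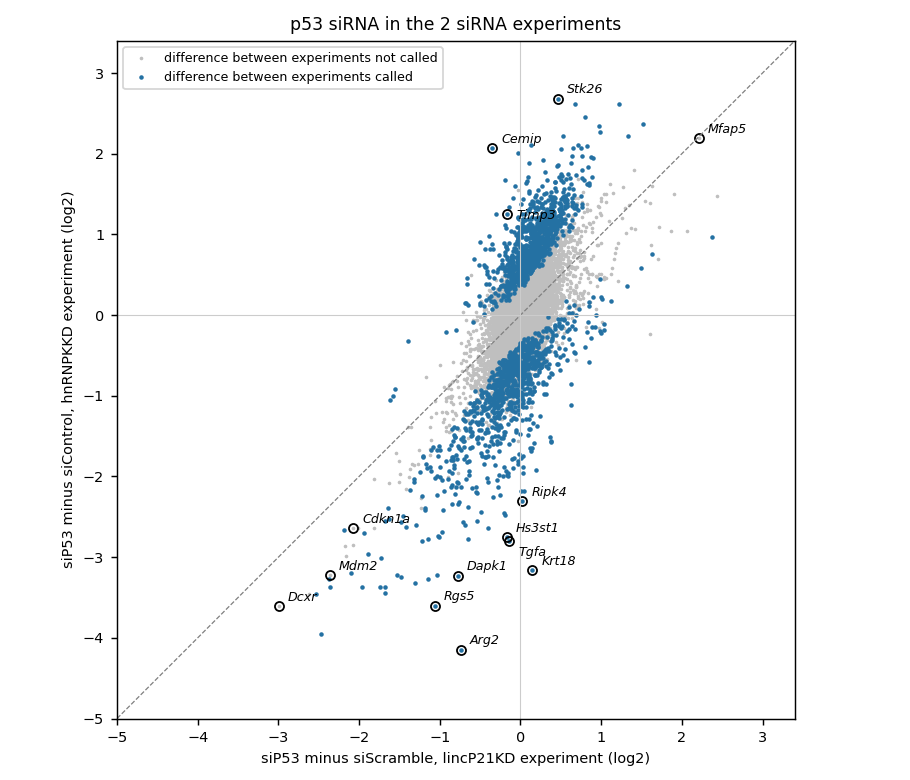
Log2 difference of siP53 from its control in lincP21KD (horizontal) and in hnRNPKKD (vertical) for all 12674 tested genes, coloured by whether the difference between the experiments was called, with selected genes labelled and a dashed line of equal values. Krt18 lies at 0.15 and -3.16, and Cdkn1a at -2.07 and -2.64.

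The time course gives the opposite manipulation on independent arrays, p53 restored rather than removed. There 1639 genes were higher (12.9%) and 792 lower (6.25%) with AdenoCre than with AdenoGFP. Of the genes that fell with siP53, 855 rose with AdenoCre, 35.1% of the siP53 list and 52.2% of the AdenoCre list. Of the genes that rose with siP53, 407 fell with AdenoCre, 16.6% and 51.4%. Another 24 genes fell and 191 rose in both. Of the target lists, 13, 12 and 16 genes rose with AdenoCre and none fell. Of the 46 mitotic genes 22 fell and none rose, and of the 16 sterol genes 13 fell and none rose. Cdkn1a was 3.85 higher with AdenoCre, Mdm2 2.15, Psrc1 3.98 and Eda2r 4.49. Some of the largest siP53 falls had no such counterpart: Arg2 (0.20), Dusp6 (0.18) and Dusp4 (0.27) were not called, and Krt18 was 1.05 lower with AdenoCre although it fell with siP53.

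Within hnRNPKKD, siP53 was compared directly with the other siRNAs, so the differences do not use the control values, although the control arrays entered the estimate of the spread. Against siLincp21, 4909 genes differed (38.7%), 2700 lower (21.3%) and 2209 higher (17.4%), so that 45% of the called genes were higher. With arrays centred on their medians, 2229 were lower and 2849 higher, 56.1% of those called, so the balance of this comparison depends on the scaling. Against siHnrnpk, 5743 genes differed (45.3%), 2898 lower (22.9%) and 2845 higher (22.4%). With only the groups compared in the fit, the counts were 3637 and 4782. p53 targets were lower with siP53 than with siLincp21 in 15, 12 and 18 genes of the 3 lists. The same numbers were lower than with siHnrnpk. On the third list 2 genes were higher with siP53 than with siLincp21 and 3 than with siHnrnpk, and on the other target lists none were. Mitotic genes were higher with siP53 in 46 of 46 against siLincp21 and in 43 of 46 against siHnrnpk.

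The genes furthest below siLincp21 were Acaa1b (-4.76 ± 0.28), Scn3b (-4.40 ± 0.23), Celf5 (-4.24 ± 0.20), Dcxr (-4.17 ± 0.36), Tex15 (-4.10 ± 0.24), Tbc1d8 (-3.85 ± 0.22), Dapk1 (-3.80 ± 0.24) and Notch3 (-3.79 ± 0.21). Scn3b, a sodium channel subunit, read 4.67, 5.60 and 4.75 with siP53, 8.04, 7.26 and 7.98 with siControl, 9.37, 9.45 and 9.41 with siLincp21 and 9.85, 9.98 and 9.87 with siHnrnpk. None of the 4 groups overlapped another, with siP53 lowest and siHnrnpk highest. Notch3, a Notch receptor, read 5.12, 5.88 and 5.55 with siP53, 8.11, 7.29 and 7.88 with siControl and 9.24, 9.17 and 9.51 with siLincp21. The other probe sets of Scn3b and Notch3 changed less with siP53 (-0.67 and -0.53). Against siHnrnpk the same rule added Plek2, a pleckstrin family protein (-4.34 ± 0.20), and Gjb5, a connexin (-4.06 ± 0.23, with siP53 replicates 1 and 3 just below the limit of 4.54).

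The comparisons of siLincp21 and siHnrnpk with siControl use the same 3 control arrays as siP53, so the values are only set side by side. In their own comparisons, 2179 genes rose (17.2%) and 1497 fell (11.8%) with siLincp21, and 1783 rose (14.1%) and 1624 fell (12.8%) with siHnrnpk. On the arrest list, 7 genes rose and none fell with siLincp21, and 6 rose and none fell with siHnrnpk. Of the mitotic genes, 26 fell and none rose with siLincp21 (median -0.45), and 22 fell and none rose with siHnrnpk (median -0.42). Of the sterol genes, 9 fell with siLincp21 and 1 with siHnrnpk. Of the extracellular matrix genes, 12 rose and 2 fell with siLincp21, and 5 rose and 7 fell with siHnrnpk. For contractile and TGF-beta genes these counts were 9 and 2, and 1 and 4. For the unfolded protein and amino acid stress list they were 11 and 1, and 7 and 1. Directly against siLincp21, the siP53 medians were 0.025 for matrix, -0.017 for contractile and -0.101 for stress genes. By median, the matrix, contractile and stress lists did not separate siP53 from siLincp21, but single members differed in both directions. Of 25 matrix genes, 6 were called higher and 6 lower with siP53. The counts were 1 and 3 of 19 contractile genes and 4 and 8 of 24 stress genes, beside 38.7% of all genes called.

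Some genes that fell or rose with siP53 had low or high levels with the other siRNAs as well. Krt18 read 4.90, 4.74 and 5.01 with siLincp21 and 4.85, 4.87 and 5.27 with siHnrnpk, close to its siP53 arrays, and only the control arrays stood apart at 7.77 to 8.05. The levels with these siRNAs were near the filter limit of 4.54, which bounds how far they could differ. Arg2 read 7.42, 7.29 and 7.02 with siLincp21 and 7.56, 7.30 and 7.35 with siHnrnpk, between siP53 and siControl. Dusp4 read 6.28, 6.21 and 6.13 with siLincp21, within the range of its siP53 arrays (5.89, 6.60 and 5.76), and 7.99, 7.90 and 7.93 with siHnrnpk, near the controls (8.14, 8.26 and 8.38).

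Timp3 was at 10.92 to 11.02 with siLincp21, 10.69 to 10.78 with siHnrnpk, 10.75 to 10.86 with siP53 and 9.36 to 9.71 in the controls. Again the controls were the group apart, and in lincP21KD Timp3 was at -0.16 with siP53 and not called. Mfap5 was at 8.01 to 8.36 with siLincp21 and 7.56 to 7.70 with siHnrnpk, above its controls, but with siP53 in lincP21KD it rose by 2.21 as it did here. Stard4 read 9.74, 9.49 and 9.99 with siP53 and 6.80, 6.93 and 7.26 with siLincp21, on opposite sides of the controls (8.79, 8.88 and 8.67). Col11a1 was 9.78 to 9.84 with siP53, 10.49 to 10.68 with siLincp21 and 6.21 to 6.71 with siHnrnpk, against 8.32 to 8.68 in the controls.

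**Figure D5:**
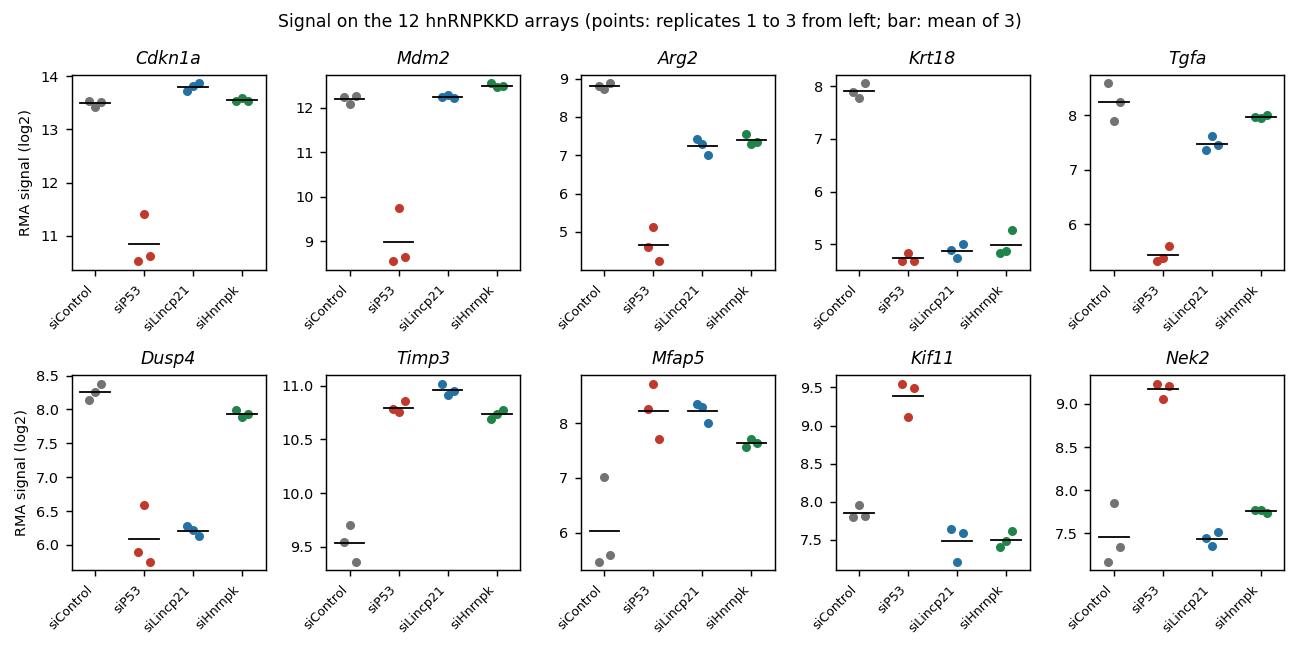
Log2 signal on each of the 12 hnRNPKKD arrays, 3 for each siRNA, for 10 genes, with a bar at each group's mean. For Cdkn1a siP53 is the low group. For Krt18 siP53, siLincp21 and siHnrnpk all lie between 4.68 and 5.27, near the filter limit of 4.54. Its siControl arrays lie between 7.77 and 8.05.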

How the data were processed

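RNA was measured on Affymetrix mouse expression arrays. The deposited table holds log2 signal of 45101 probe sets on 30 arrays, made by the authors with RMA per the submitters' processing notes. The sources used here do not give its version. The values were used without further scaling. Of the probe sets, 34958 had 1 gene symbol, 932 several and 9211 none. For 34754 the symbol was taken from RefSeq by gene identifier, whether or not it changed. Where several probe sets named 1 of the 18193 genes, the brightest on average over the 30 arrays stood for it. Leaving out the lowest 40% of probe sets, a limit of 4.54, left 12674 genes. The fits of group means used limma (version 3.58.1, lmFit and plain eBayes, in R 4.3.3) over all arrays of an experiment, over both siRNA experiments for the difference between them, and with the time point as a block in the time course. P-values were adjusted by Benjamini-Hochberg over all genes and called below 0.05. The code was tested on simulated data. The number of arrays limits the precision.

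The members, gene lists and tests were chosen with earlier results of these data known. Named genes are Cdkn1a, Mdm2 and Hnrnpk, the 12 largest rises and 12 largest falls among called genes whose groups did not overlap, at most 4 genes a described list by smallest adjusted p, all p53 targets, and the 8 largest of each direct contrast and of the difference between experiments. Trp53, Trp53cor1, Bax, Gdf15 and Ccnb1 are not analysed here. Promoter windows of 300 bases from RefSeq (GRCm38.p6) were searched on both strands. Alternatives changed the filter, scaling, probe set rule, variance model, array weights, arrays in the fit, replicate block and each array in turn.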

Additional observations from a re-analysis of the deposited data

Results flagged for a closer look

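The siP53 effect differed between the hnRNPKKD and lincP21KD experiments in 96 genes named in the report, by the limma contrast of the difference itself with Benjamini-Hochberg adjustment over all 12674 genes. Values are the hnRNPKKD difference minus the lincP21KD difference on the log2 scale, and levels at the filter limit in one experiment bound some of them. For Ripk4 and Klhl30, all siP53 and siScramble arrays of lincP21KD were under the limit of 4.54. No fixed cutoff for outlying samples was applied to groups of 3 arrays.

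Among p53 targets, the value was lower in hnRNPKKD for Def6 (-1.91), Psrc1 (-1.76), Crip2 (-1.76), Phlda3 (-1.72), Gtse1 (-1.40), Dglucy (-1.29), Rprm (-1.23), Ptp4a3 (-1.20), Pidd1 (-1.03), Sesn2 (-1.01), Polk (-0.96), Slc19a2 (-0.94), Perp (-0.90), Siva1 (-0.85), Aen (-0.85), Ddit4l (-0.76), Apaf1 (-0.73), Ei24 (-0.70), Ak1 (-0.68), Pltp (-0.65) and Bbc3 (-0.60). For Ccng1 it was higher (0.57). Cdkn1a (-0.57), Mdm2 (-0.86) and Dcxr (-0.615) were not called in this contrast, but all 3 were called without siP53 replicate 2 (-0.85, -1.24 and -1.21) and with array weights.

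Among cell-cycle, replication and repair genes, the value was higher in hnRNPKKD for Pole (0.71), Aurkb (0.76), Kif4 (0.77), Racgap1 (0.78), Exo1 (0.82), Nek2 (0.83), E2f6 (0.84), Orc1 (0.84), Kif11 (1.00), Pola1 (1.40) and E2f7 (1.56). It was lower for Cdkn2b (-0.87), Msh6 (-0.75) and E2f5 (-0.57).

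Among the other genes, the value was lower in hnRNPKKD for Arg2 (-3.41), Krt18 (-3.31), Tgfa (-2.67), Hs3st1 (-2.59), Rgs5 (-2.54), Dapk1 (-2.46), Ripk4 (-2.33), Plek2 (-2.24), Dusp4 (-2.22), Gsta4 (-2.11), Tcim (-2.01), Dusp6 (-1.91), Icam1 (-1.86), Mmp3 (-1.76), Scn3b (-1.74), Gjb5 (-1.69) and Hoatz (-1.69). The same held for Egr3 (-1.63), Mab21l3 (-1.63), Cd14 (-1.60), Acaa1b (-1.48), Zfp365 (-1.41), Tap1 (-1.20), Lif (-1.12), Tex15 (-1.11), Notch3 (-1.02), Tbc1d8 (-1.01), Gclc (-0.98), Celf5 (-0.92), Dusp5 (-0.89), Sox9 (-0.81), Rchy1 (-0.73), Ifi35 (-0.64), Hbegf (-0.59) and Ppp1r13l (-0.53). It was higher for Prrx1 (0.49), Slc7a5 (0.54), Col11a1 (0.57), Vcl (0.58), Thy1 (0.59), Actg2 (0.76), Kitl (0.77), Ednrb (0.85), Calml4 (0.89), Ifit2 (0.98), Pdgfrb (1.17), Ccn5 (1.28), Lox (1.33), Elovl5 (1.37), Aspn (1.40), Aqp5 (1.40), Timp3 (1.42), Adm (1.46), Cxcl5 (1.66), Cxcl1 (1.67), Adamts5 (1.70), Adam12 (1.94), Klhl30 (1.98), Stk26 (2.21) and Cemip (2.42).

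Several of these calls depended on the setting. Of 20 alternatives, the call was lost in 14 for Ednrb, 13 for Bbc3, 10 each for Calml4, Pltp and Tex15, 9 each for E2f5, Egr3 and Prrx1, 8 each for Col11a1 and Slc7a5, 7 each for Celf5 and Ppp1r13l, 6 each for Hbegf, Notch3 and Tbc1d8, and 5 or fewer for the others.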

How the results depend on the processing

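Of the 142 genes given for siP53 against siControl, 129 kept their direction and side of the threshold under all 15 alternatives. Of the 99 genes given for the difference between experiments, 65 did so under all 20. With array weights, 7465 genes were called for siP53 against siControl (3815 lower), 7597 against siLincp21 and 5338 for the difference between experiments. With only the groups compared in the fit, which leaves fewer arrays to estimate the spread, 1589 genes fell against siControl and 919 differed between experiments. Leaving out 1 array gave 3818 to 6552 called genes for siP53 against siControl, 4012 to 6354 against siLincp21, 4772 to 7118 against siHnrnpk and 935 to 4350 for the difference between experiments, where 4350 was without siP53 replicate 2 and 1074 and 935 were without siScramble replicate 1 or 2. Deviations of same-numbered siP53 and siControl arrays correlated at 0.36, 0.36 and -0.19, and those of siP53 and siLincp21 at -0.033, 0.63 and 0.69, so not every pair is positive and the numbers were not taken to pair the arrays. With the replicate number as a block 5423 genes were called against siControl and 5324 against siLincp21. The genes whose direction turned were not called in the first place, except Ccng1. With the mean of probe sets Rrm2b was at 0.056 and the Ccng1 difference between experiments at -0.043. Leaving out 1 array gave Hnrnpk -0.098 (without siControl replicate 2) to 0.272, with -0.032 without siP53 replicate 1. It gave Plk3 -0.093 to 0.019 (without siP53 replicate 2), Triap1 -0.523 to 0.065 (without siP53 replicate 3) and Tigar -0.153 (without siP53 replicate 3) to 0.201, with -0.089 without siControl replicate 2. Nupr1 lost its call in 6 settings, Plk2 in 2 and Vcl in 1, while Bid and Steap3 were called in 3, Xpc in 2 and Ddb2, Rap2b and Triap1 in 1 each. The cause of these changes was not tested. Signal near the filter limit bounds the falls of Arg2, Acaa1b, Eda2r, Gjb5, Hoatz, Icam1, Krt18 and Mab21l3.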
